A study of Mus musculus with 7 samples.

Results

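FRA2 (the product of Fosl2) belongs to the FOS family of basic leucine zipper proteins, which bind DNA as a dimer with a JUN protein such as JUND, and this dimer is the transcription factor AP-1. AP-1 is bound largely at distal regulatory elements, often beside factors that mark the cell type, and SOX2, an HMG box protein, is such a factor in neural progenitors. The sites described here are positions where FRA2 was bound in the Q7 line and had far fewer reads in the Q111 line. They were chosen by the FRA2 reads themselves: at least 40 reads in Q7, and a Q7 number of at least 8 times the Q111 number plus 0.5. This rule was met by 781 of the 64579 FRA2 events in the deposited table (1.21%), which are called lost sites from here on.

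STHdhQ7 and STHdhQ111 (Q7 and Q111) are striatal cell lines derived from mouse embryos at day 14, of mixed 129SvEv/CD1 strain. Q7 carries 2 huntingtin alleles with a short glutamine tract (HdhQ7/Q7), and Q111 carries 2 alleles with the expanded tract that models Huntington's disease (HdhQ111/Q111). Cells of both lines were below passage 15, were grown at 33 °C and spent 2 days at 39 °C before the experiment so that division stopped. FRA2 and JUND were each precipitated in both lines and SOX2 in Q7, with IgG as control antibody in both, and each sample pools 2 replicates. Each genotype is thus represented by 1 line and 1 pooled library per antibody, so that line and genotype cannot be told apart, there is no spread between replicates, and every test below compares libraries. The FRA2 events held 3340554 reads for Q7 against 3498922 for Q111, the 46583 JUND events 1660158 and 1609483, and the 26433 SOX2 events 1193914. An event is a single base position on mouse build mm9. No mm9 genome or annotation was used here, so genes, exons and sequence at the sites are not given. ChIP-seq measures no expression either, so the labelled cell type was not checked against markers.

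FRA2 at the lost sites ranged from 40 to 521 reads in Q7, with a median of 72.8, and from 0 to 53 reads in Q111, with a median of 5.1. Control reads at the same sites had medians of 4.3 in Q7 and 5.2 in Q111. The median of Q111 FRA2 reads was thus close to that of the Q111 control, and 361 sites (46.2%) had no more FRA2 than control reads there. At the 24013 other FRA2 events with at least 40 Q7 reads, called strong from here on, the medians were 74 reads for Q7 against 65 for Q111, with 4.8 and 5.7 control reads. The authors marked all 781 lost sites present in Q7 and 17 of them present in Q111, against 20518 (85.4%) of the other strong events. All 781 were also called lower in Q111 by the exact binomial test used below, as were 21.7% of all FRA2 events. Since the rule used these reads, none of this is a test.

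**Figure D1:**
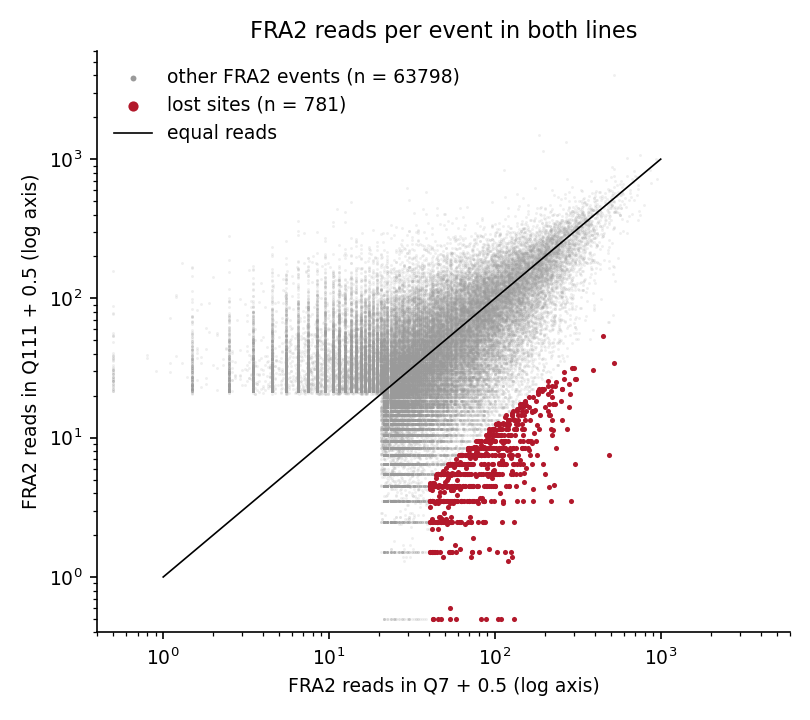
FRA2 reads per event in Q7 (horizontal) and Q111 (vertical), each plus 0.5 on log axes, with the 781 lost sites in red, the other events in grey and a line at equal reads. The lost sites lie at 40 or more Q7 reads and at most 53 Q111 reads.

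The lost site with the most FRA2 lay on chromosome 15 at position 37391979 and had 521 reads for Q7 against 34 for Q111. On chromosome 19, position 25536717 had 488 and 7 reads. Position 52147394 of chromosome 11 had 450 and 53, the highest Q111 number among the lost sites. These 3 sites thus kept different amounts of FRA2: the Q111 reads were above the Q111 control at the sites on chromosomes 15 (6.2 control reads) and 11 (17.5), and close to it at the site on chromosome 19 (6.2). Scaled for the median ratio of the libraries, the Q7 level was 15.6-fold (95% interval 11.2 to 23.1), 67.2-fold (34.7 to 180.0) and 8.69-fold (6.58 to 11.9) that of Q111, where the intervals are exact ones of the read share and cover counting error only.

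Chromosome 8 held 3 of the next 7 sites. Position 34545888 had 392 reads for Q7 against 30 for Q111, position 50367973 had 293 and 31, and position 14732368 had 285.9 and 3. The last of these had 14.4 control reads in Q111, more than its FRA2 reads. Of the remaining 4, position 39168492 on chromosome 3 had 308 and 26 reads and position 74254327 on chromosome 2 had 303 and 6. Position 85888041 on chromosome 15 had 302 and 26, beside 27.2 control reads in Q111, and position 119718129 on chromosome 11 had 299 and 31. Among these 10 sites, all had a JUND event within 100 bp, and all but the one on chromosome 3 had a SOX2 event within that distance.

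At 12 lost sites the Q111 number rounded to 0. The highest Q7 numbers among them were 129.9 at chromosome 3 position 101265974, 109 at chromosome 2 position 76561303 and 104 at chromosome 3 position 156567454. Against a floor of 3 reads per library these were at least 44.7-fold, 37.5-fold and 35.8-fold higher in Q7. Q111 control reads were listed at all 3 positions (8.3, 15.5 and 7.2). The next, position 80654774 on chromosome 17 (88.1 and 0 reads) and position 47398192 on chromosome 9 (81.7 and 0), had 9.9 and 4 control reads in Q111. Both had another lost site close by, the former at 118 bp with 123.9 and 1 reads and the latter at 185 bp with 279.5 and 24. One of the 12, position 92651584 on chromosome 10 (47.1 and 0 reads), was listed with 0 control reads in both lines, and this position was chosen after its values were seen. A FRA2 event 200 bp from position 92651584 had 95.9 and 16 reads. The part of read assignment between such neighbours in the Q111 numbers of 0 was not tested.

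At the fold limit, 9 lost sites had a ratio of exactly 8, with 44 to 92 reads in Q7 and 5 to 11 in Q111. The 5 events just outside it, on chromosomes 4, 10 and 15, had ratios from 7.95 to 7.99. They include chromosome 10 position 42554213, with 218.8 reads for Q7 against 26.9 for Q111. At the read limit, 17 lost sites had exactly 40 reads in Q7, with 1 to 4 in Q111, and the 5 events just outside had 39.2 to 39.7 reads in Q7 and 1.7 to 3.9 in Q111. Events on either side of each limit thus had nearly the same ratio or Q7 reads.

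JUND is one of the JUN proteins that FRA2 can bind with, and its reads did not enter the rule. A JUND event lay within 100 bp of 636 lost sites (81.4%, Wilson interval 78.6 to 84.0%), at a median distance of 17 bp. At these events JUND had a median of 46 reads in Q7 (range 21 to 214.9) and of 6 reads in Q111 (range 0 to 55). All 636 had fewer JUND reads in Q111 than in Q7. In a two-sided exact binomial test comparing each event between the lines, adjusted by the Benjamini-Hochberg method over the whole JUND table, with a fold of at least 2 required, 633 of the 636 (99.5%, 98.6 to 99.8%) were called lower in Q111. Over all JUND events 23.6% were called lower and 17.7% higher. None of the 636 was called higher, and a count of 0 allows a share of up to 0.472% when 3 counts are taken as the limit, or 0.600% by the Wilson interval. An event enters the JUND table by being marked present in at least 1 line, and 632 of the 636 carried that mark in Q7 alone. An event listed through Q7 alone tends to be higher in Q7 by that choice, so these counts describe the sites and are not independent support for a JUND loss at them.

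The median JUND log2 ratio of Q111 to Q7 at the lost sites was -3.04, with 5% of events below -4.79 and 5% above -1.67, beside a median of -0.13 over all JUND events. In folds, JUND was a median of 8.22 times higher in Q7 at the lost sites, where FRA2 was 11.8 times higher, the latter being bounded below by the rule. The JUND number met the same 8-fold limit at 309 of the 636 (48.6%). Among JUND events within 100 bp of any FRA2 event the share was 2.06% (737 of 35715). Near the other strong FRA2 events it was 1.18% (249 of 21019). Across the 636 sites the FRA2 and JUND log2 ratios were related with Pearson's r at 0.30 and Spearman's rho at 0.34, a description over sites of the same 4 libraries and over the narrow range the rule leaves. JUND reads in Q111 were also near control: they were at or below the Q111 control reads at 312 events (49.1%), and 4 of the 636 were marked present in Q111. At the other strong FRA2 events with a JUND event nearby, 787 of 21019 (3.74%) had JUND at or below control in Q111, and 67.1% were marked present there.

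**Figure D2:**
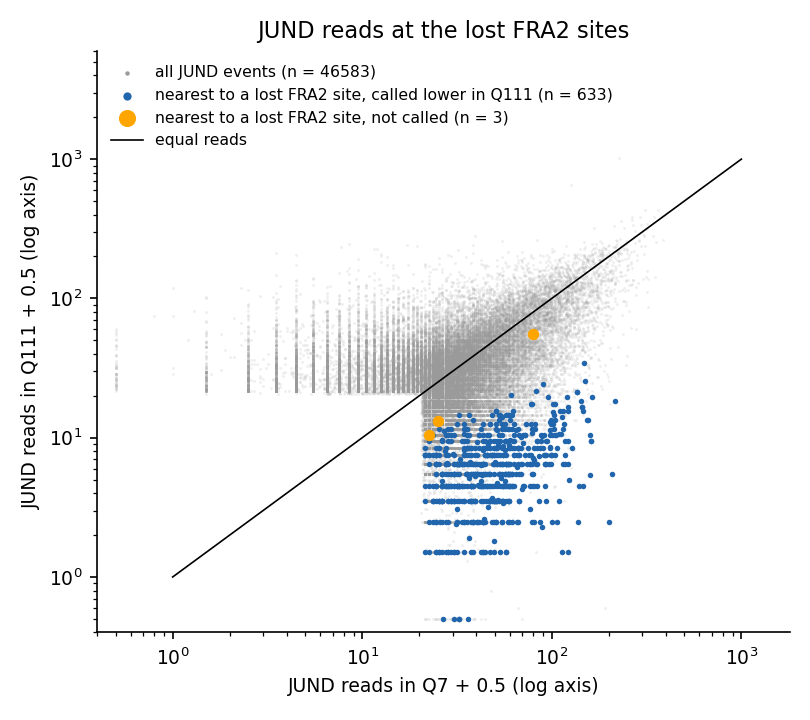
JUND reads in Q7 (horizontal) and Q111 (vertical), each plus 0.5 on log axes, for all 46583 JUND events (grey) and for the nearest JUND event within 100 bp of a lost FRA2 site, called lower in Q111 (blue, 633) or not called (orange, 3). The black line marks equal reads, and all coloured points lie below it.

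Other strong FRA2 events served as comparison. Of their nearest JUND events 28.1% (27.5 to 28.8%) were called lower in Q111 and 5.26% higher. Where FRA2 itself was within 1.5-fold between the lines (11636 events), 7.23% were called lower and 1.31% higher. In the mirror set, the 1357 events with at least 40 Q111 reads and at least 8 times the Q7 number plus 0.5, 991 of 1006 nearest JUND events were called higher and 0 lower. JUND thus differed in the same direction as FRA2 at nearly all of the listed events of both sets, and the mirror set's JUND events were all marked present in Q111. These shares were not tested against each other, because sites of the same libraries are not replicates.

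Among lost sites with the most JUND, the event 7 bp from chromosome 15 position 37391979 had 214.9 JUND reads for Q7 against 18 for Q111, 12.2-fold apart (interval 7.76 to 21.6, adjusted p = 1.01e-42 by the exact binomial test). The event 9 bp from chromosome 8 position 14732368 had 208.1 and 5, 39.9-fold apart (interval 18.4 to 136.1, adjusted p = 1.25e-53 by the exact binomial test). The event 5 bp from chromosome 19 position 25536717 had 200 and 2, 84.3-fold apart (interval 28.7 to 874.1, adjusted p = 1.97e-55 by the exact binomial test). FRA2 and JUND were therefore both lower in Q111 than in Q7 at these 3 strong sites, where FRA2 had been chosen for this. JUND was less reduced at chromosome 11 position 52147394, with 148 and 34 reads, 4.53-fold apart (interval 3.13 to 6.85). The event 50 bp from position 37373397 of chromosome 15 had 162 and 19, 8.76-fold apart (interval 5.56 to 15.3).

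The 3 lost sites whose JUND event was not called were examined in full. At chromosome 6 position 71673698 FRA2 had 53.2 reads for Q7 against 0.1 for Q111, and JUND 12 bp away had 79 and 55, a 1.51-fold difference (1.06 to 2.17), which is under the fold limit of a call. A second FRA2 event, 18 bp away at position 71673680, had 0 reads for Q7 against 54.4 for Q111, and the sums of both were 53.2 and 54.5, so that the lines had nearly equal FRA2 reads once both positions were added. At chromosome 17 position 63036780 FRA2 had 51.9 and 4.6 reads and JUND 24.7 and 12.7. Its FRA2 neighbour 210 bp away, at position 63036990, had 190.1 and 213.4. At chromosome 11 position 80303097, with 44 and 4 FRA2 reads, JUND had 22 and 10 reads, a 2.25-fold difference (1.05 to 5.47) with an adjusted p of 0.0641 by the exact binomial test.

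Close FRA2 neighbours were counted over all lost sites. Another FRA2 event lay within 250 bp of 87 of them, and this neighbour was itself a lost site in 34 cases. It had more reads in Q111 than in Q7 in 3 cases, at the positions on chromosomes 6 and 17 just named and at chromosome 7 position 119498158, where the sums of both events were 67 and 29 reads. With the reads of each site and its neighbour summed, 58 of the 87 still met the fold limit. With events chained within 100 bp merged before the rule was applied, 778 sites were found.

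No JUND event lay within 100 bp of 145 lost sites. These were weaker, with a median of 52 FRA2 reads in Q7 against 82.5 at the 636 sites with JUND. The share with JUND rose with the FRA2 reads: it was 65.5% (59.8 to 70.8%) at 40 to 60 Q7 reads, 84.8% (79.9 to 88.7%) at 60 to 100, 95.9% (92.2 to 97.9%) at 100 to 200 and 44 of 44 above. At the other strong events the shares in the same 4 ranges were 72.4%, 92.1%, 99.0% and 99.8%. In the lower 3 ranges a listed JUND event was thus somewhat less frequent near the lost sites. An event can be listed through either line, and this differed between the sets. All 636 JUND events near lost sites were marked present in Q7, against 94.7% of those near the other strong events. The part of this in the lower share was not tested. A site with no listed JUND event may still have had JUND reads below the authors' threshold. Where JUND was listed, its Q7 medians in the 4 ranges, at lost sites against other strong events, were 32.6 against 29 reads, 43 against 36.3, 60 against 59 and 106.5 against 113.

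**Figure D3:**
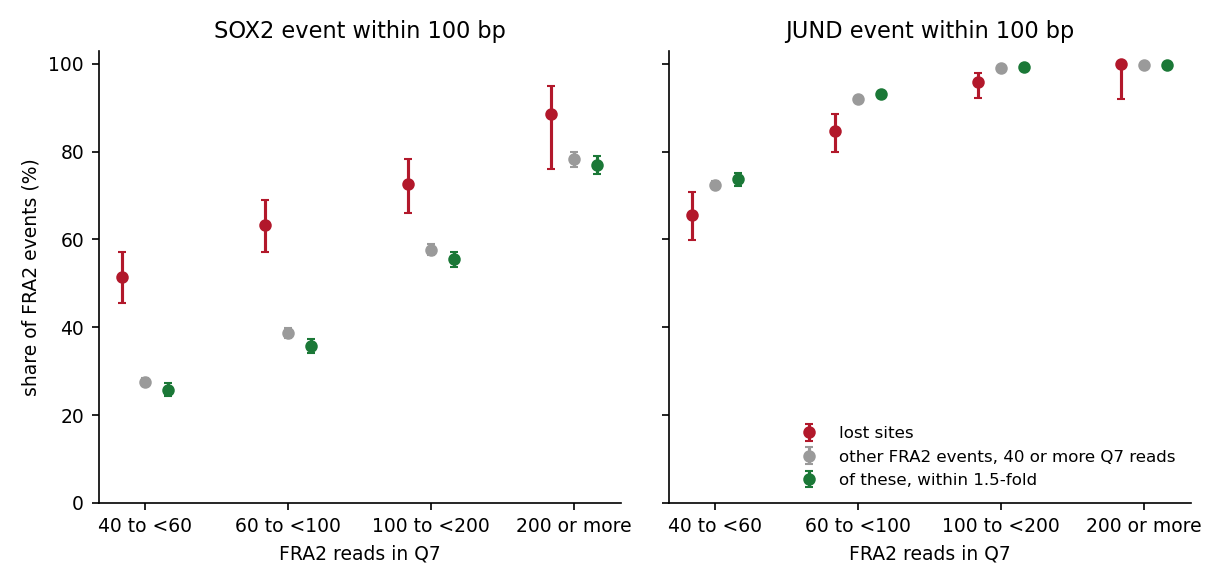
Share of FRA2 events with a SOX2 event (left) or a JUND event (right) within 100 bp, by FRA2 reads in Q7, for the lost sites (red), the other events with at least 40 Q7 reads (grey) and those of them within 1.5-fold between the lines (green). Points are percentages and bars 95% Wilson intervals over sites, and for SOX2 the lost sites are highest in all 4 ranges.

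SOX2 had been mapped in Q7, the line in which the lost sites were bound. A SOX2 event lay within 100 bp of 490 lost sites (62.7%, 59.3 to 66.1%), at a median distance of 35 bp, and within 1 kb of 612 (78.4%, 75.3 to 81.1%). For the other strong FRA2 events the shares were 43.0% (42.4 to 43.7%) and 57.1%, and for those within 1.5-fold between the lines 43.4% and 58.0%. In the mirror set the share within 100 bp was 0.295%, or 4 of 1357 events. Since SOX2 was not mapped in Q111, a SOX2 event at a site that FRA2 bound in Q111 alone could not have been seen there, and the mirror set is no measure of SOX2 at such sites.

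The SOX2 share was compared within ranges of FRA2 reads. At 40 to 60 FRA2 reads in Q7 it was 51.4% (45.6 to 57.2%) at lost sites and 27.5% (26.5 to 28.4%) at the other strong events. At 60 to 100 reads the shares were 63.3% (57.2 to 68.9%) and 38.6% (37.5 to 39.7%), and at 100 to 200 reads 72.6% (66.0 to 78.3%) and 57.7% (56.4 to 58.9%). At 200 reads and more they were 88.6% (76.0 to 95.05%) and 78.3% (76.5 to 79.95%), with intervals that overlap. Read the other way, 4.53% (4.15 to 4.94%) of strong FRA2 events with SOX2 within 100 bp were lost sites, against 3.48% of those with SOX2 between 100 bp and 1 kb away and 1.61% (1.39 to 1.87%) of those with none within 1 kb. No test was made of these differences.

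The nearest SOX2 event held a median of 50 reads at the 490 lost sites, 39 at the other strong events and 33 over all SOX2 events, with a median of 4.3 SOX2 control reads in the first 2 sets. When SOX2 events were ranked by reads into 4 equal groups, the share of strong FRA2 events beside them that were lost sites was 2.07% (1.44 to 2.98%), 3.25%, 4.23% and 6.36% (5.64 to 7.15%), from the lowest group to the highest.

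The strongest SOX2 event beside a lost site, 6 bp from chromosome 14 position 73653435, had 414 reads. FRA2 there had 108.9 reads for Q7 against 8 for Q111, and JUND 61.2 and 4. At chromosome 7 position 38474770 SOX2 had 394.8 reads, FRA2 69 and 3, and JUND 58 and 2. On chromosome 15, positions 80680670 and 80680752 shared a SOX2 event of 380 reads and a JUND event of 144 reads for Q7 against 16 for Q111, and had 91.8 and 114.2 FRA2 reads in Q7 beside 10.5 and 13.5 in Q111. Positions 171415847 and 171415982 of chromosome 1 likewise shared a SOX2 event of 305.6 reads, and the JUND event they shared had 135.5 reads for Q7 against 20.7 for Q111. Such pairs count as 2 lost sites but hold 1 SOX2 and 1 JUND event. At all these places SOX2 was strong in Q7 while FRA2 and JUND were lower in Q111 than in Q7. Of the remaining 4 of the 10 strongest, the SOX2 reads were 310 at chromosome 8 position 34545888, 306.6 at chromosome 18 position 81449166, 298 at chromosome 17 position 26719514 and 290 at chromosome 13 position 47732365.

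Taking both partners together, 431 lost sites (55.2%) had JUND and SOX2 within 100 bp, 205 (26.2%) JUND alone, 59 (7.55%) SOX2 alone and 86 (11.0%) neither. The other strong events were divided into 41.2%, 46.3%, 1.84% and 10.6% in the same order. Lost sites with SOX2 within 100 bp had a median of 85 FRA2 reads in Q7, and the 169 lost sites with no SOX2 within 1 kb had 58. JUND fell at both kinds, with a median log2 ratio of -3.17 at the former (431 events) and -2.78 at the latter (113 events). The JUND level in Q7 differed as well, with medians of 51 and 30 reads, and a lower starting number limits the ratio that can be seen.

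Neither JUND nor SOX2 was found within 1 kb of 51 lost sites (6.53%). The strongest was chromosome 19 position 3289215, with 98 FRA2 reads for Q7 against 8 for Q111. It was followed by position 55926589 of the same chromosome (89 and 10), chromosome 9 position 61378689 (84 and 2), chromosome 13 position 36302995 (79 and 9) and chromosome 8 position 41006995 (71 and 8). All 5 had a FRA2 event between 2041 and 7899 bp away, and 3.6 to 9.6 control reads in Q7. The rule thus also chose sites with no listed JUND or SOX2 event within 1 kb, and their low FRA2 in Q111 follows from the rule.

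Along the chromosomes, lost sites were found on all autosomes and on chromosome X. Relative to the strong FRA2 events of each chromosome, the share of lost sites was 3.15% (2.94 to 3.37%) in all. It was highest on chromosome 9, with 68 of 1223 (5.56%, 4.41 to 6.99%), and chromosome 7, with 55 of 1158 (4.75%, 3.67 to 6.13%). The lowest shares were those of chromosome X, with 6 of 384 (1.56%, 0.718 to 3.37%), chromosome 11, with 26 of 1607 (1.62%, 1.11 to 2.36%), and chromosome 2, with 38 of 1827 (2.08%, 1.52 to 2.84%). Chromosome 17, where the median log2 ratio of all FRA2 events was the lowest among the autosomes and X at -0.47, held 40 lost sites (3.72%, 2.75 to 5.03%), within the range of the others.

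Control reads differed between chromosomes too. Relative to the whole table, the Q111 to Q7 ratio of control reads was 1.02 on chromosome 9, 1.09 on chromosome 7, 1.03 on chromosome 2, 1.17 on chromosome 11 and 0.790 on chromosome X. The median log2 ratio of all FRA2 events was -0.21 on chromosome 9, -0.20 on chromosome 7, 0.14 on chromosome 2, 0.16 on chromosome 11 and 0.14 on chromosome X. The share of strong events with SOX2 within 100 bp was 43.1% on chromosome 9, 38.1% on chromosome 7, 42.1% on chromosome 2, 39.5% on chromosome 11 and 33.9% on chromosome X. The part of these values in the chromosome shares was not tested.

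**Figure D4:**
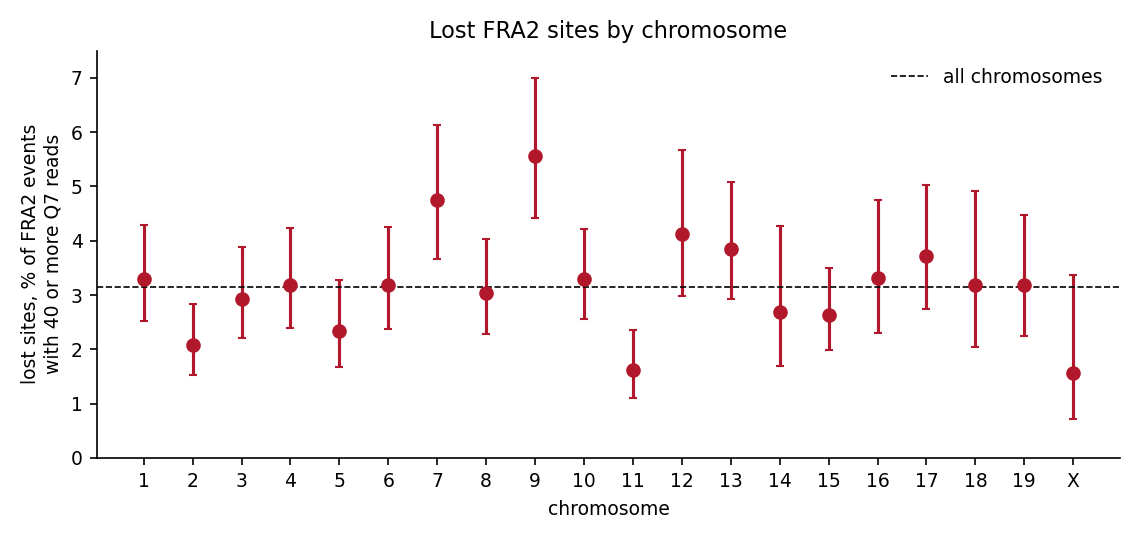
Lost FRA2 sites as a percentage of the FRA2 events with at least 40 Q7 reads on each chromosome (points, with 95% Wilson intervals over sites), beside the share over all chromosomes (dashed line). Chromosomes 9 and 7 lie above the dashed line with their intervals, and chromosomes 11 and 2 below it.

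Most lost sites stood alone, and some formed small groups. The median distance from a lost site to the next was 388074 bp, and 233 of the 781 (29.8%) had another within 100 kb. Chained at that distance they gave 652 places: 548 single sites, 87 pairs, 13 groups of 3, 1 group of 4, 2 groups of 5 and 1 group of 6. Of the 781, 57 had another lost site within 1 kb, and counting such neighbours as 1 left 752 sites. Of the mirror set, 55 of 1357 events (4.05%) had a lost site within 100 kb. Those events were chosen for the opposite direction, so this is no background for the 29.8%. The shares of strong events by distance, given next, are to be read beside the 3.15% of all strong events that were lost sites.

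Around a lost site other FRA2 and JUND events were lower in Q111 as well, and the more so the closer they lay. Among strong FRA2 events within 1 kb of a lost site, 57 of 152 (37.5%, 30.2 to 45.4%) were lost sites themselves, and the share was 11.3% (8.51 to 14.7%) at 1 to 10 kb, 5.69% (4.82 to 6.71%) at 10 to 100 kb, 2.82% at 100 kb to 1 Mb and 2.24% (1.99 to 2.52%) beyond. FRA2 events that were not lost sites had a median log2 ratio of -2.34 within 1 kb, -1.05 at 1 to 10 kb, -0.37 at 10 to 100 kb, -0.05 at 100 kb to 1 Mb and 0.16 beyond 1 Mb. JUND events more than 100 bp from a lost site had medians of -2.37, -1.09, -0.49, -0.17 and 0.01 at the same distances. Of the 172 JUND events between 100 bp and 1 kb away, 156 (90.7%, 85.4 to 94.2%) were called lower in Q111, and of the 23733 beyond 1 Mb 19.1%. The spread within each range was wide, with an interquartile range of 1.30 to 1.84 in log2 for FRA2. Reads were divided between some close events. At chromosome 10 positions 92300626 and 92300758, 132 bp apart, fractional numbers of 125.5 and 54.5 in Q7 summed to 180. In Q111 0.9 and 5.1 summed to 6. Of the 57 lost sites with another within 1 kb, 34 had it as their nearest FRA2 event within 250 bp. The part of this division in the values at short distances was not tested. Events listed through Q7 alone tend to be lower in Q111 by that choice, and they are included at every distance. The JUND shares and medians are therefore not independent support for a JUND loss around the lost sites.

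**Figure D5:**
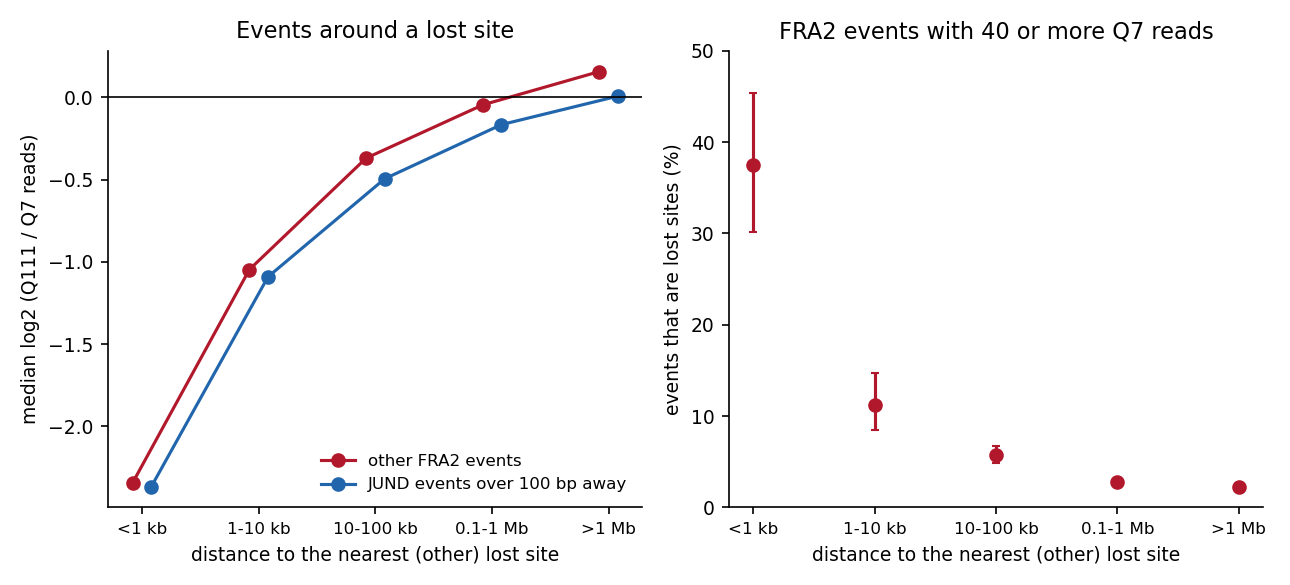
Left, the median log2 ratio of Q111 to Q7 reads for FRA2 events that are not lost sites (red) and JUND events more than 100 bp away (blue), by distance to the nearest lost site. Right, the share of FRA2 events with at least 40 Q7 reads that are lost sites, by distance to the nearest other lost site, with 95% Wilson intervals. The JUND medians approach 0 with distance, the FRA2 median passes from -0.05 to 0.16 beyond 1 Mb, and the share falls.

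The largest group lay on chromosome 9 between positions 47369491 and 47434204, where 6 of 11 FRA2 events in 64.7 kb were lost sites. Its strongest site, position 47398007, had 279.5 reads for Q7 against 24 for Q111, and position 47398192, 185 bp away, had 81.7 and 0. The end sites had 51 and 5 reads and 127.2 and 14.5. Of the 5 FRA2 events of the stretch that the rule did not choose, 2 were called lower in Q111 and 1 higher, beside 21.7% called lower over all FRA2 events. All 7 JUND events were called lower, against 23.6% over the JUND table, with 445 JUND reads for Q7 against 56 for Q111, and 11 SOX2 events were listed. The JUND events here and in the groups below include those listed through Q7 alone. Control reads summed to 25.2 in Q7 and 36.2 in Q111 over the FRA2 events of the group, so control reads were not lower in Q111 there.

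On chromosome 15, positions 37373397 to 37462074 held 5 lost sites among 10 FRA2 events. The 5 others, which the rule did not choose, were all called lower in Q111, beside 21.7% over all FRA2 events, and summed to 289.8 reads for Q7 against 81.8 for Q111. JUND summed to 714.9 and 137.4. The strongest site of all, at 37391979, belongs to this group, and a site 569 bp from it, at 37391410, had 135 and 15 reads. The stretch held 11 SOX2 events, of which the nearest lay 4 bp from the strongest site and 3 bp from its neighbour. Control reads were 62.4 in Q7 and 91.1 in Q111.

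The other group of 5 lay on chromosome 13 between positions 47658210 and 47771972. It held 1 further FRA2 event, which had 32 and 2 reads and was called lower, and its 4 JUND events had 223 and 9. Here control reads were lower in Q111 as well, at 16.5 against 36 in Q7. Position 47732365 had 159.9 and 7.7 FRA2 reads, JUND 4 bp away had 137 and 2, and SOX2 99 bp away had 290. At the ends of the group, position 47658210 had 56 and 5 reads and position 47771972 had 58 and 3.

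The group of 4, on chromosome 15 between positions 11035039 and 11170173, held 11 further FRA2 events, of which 10 were called lower in Q111, beside 21.7% over all FRA2 events. Position 11048375 had 194 and 6 FRA2 reads and position 11035039 had 177 and 9. SOX2 had 120 reads 14 bp from the former and 130 reads 4 bp from the latter. Control reads over this stretch were 103.2 in Q7 and 75.3 in Q111, so they were lower in Q111 here too. Over all FRA2 events mean control reads were higher in Q111, at 5.71 an event against 4.30 in Q7. Of the groups of 3, the one described here lay on chromosome 10 between positions 92599219 and 92735916. Its strongest lost site had 87.6 FRA2 reads in Q7, fewer than the 230.4 at position 115704044 of another such group on that chromosome. The described group held 15 further FRA2 events. Of these, 5 were called lower and 0 higher, beside 21.7% called lower over all FRA2 events. The 15 summed to 1332.3 reads for Q7 against 904.7 for Q111.

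At the other extreme were lost sites far from any FRA2 event. The most isolated, chromosome 14 position 82643334, lay 747673 bp from the next FRA2 event and had 143 reads for Q7 against 14 for Q111, with JUND 16 bp away at 56 and 11 reads and SOX2 2 bp away at 49. Position 92261846 of chromosome 17, with 82 and 6 FRA2 reads and 57 and 1 JUND reads, was 476427 bp from the next. The site on chromosome 16 at position 80408729 (43 and 2 reads) had no JUND event within 529300 bp. Position 126701946 of chromosome 1 had 137 and 12 FRA2 reads and 30 and 3 JUND reads, and position 128510804 of chromosome 5 had 84 and 8 FRA2 reads and 53 and 7 JUND reads. At the 4 isolated sites with a JUND event, the JUND event was called lower in Q111. Over all JUND events 23.6% were called lower, and over those near lost sites 99.5%. The adjusted p-values of the 4 ran from 5.5e-15 to 4.76e-06 by the exact binomial test, and all 4 were listed through Q7 alone.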

How the data were processed

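FRA2, JUND and SOX2 events came from 3 tables of the whole series, and groups from the sample titles, which state that 2 replicates were pooled. Reads were aligned to mm9 with Bowtie 0.12.7, per the submitters' processing notes. Settings of the event caller were not stated there. The IP values, as deposited, are expected counts of reads assigned to each event, without scaling, and they were rounded to whole reads for tests. The deposited Control columns hold a signal, which is control reads after scaling by library. The q-values are deposited as −log10. Another 22 value columns stayed out of the work. Depth is known as reads in listed events only.

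JUND reads were compared event by event by a two-sided exact binomial test (scipy 1.17.1), with the expected share from the median log2 ratio over events present in both lines (0.05 for FRA2, 0.07 for JUND), Benjamini-Hochberg adjustment over all events, and a call where the adjusted p was under 0.05 and the fold 2 or more, with a pseudocount of 0.5. The procedure was run on simulated reads with counting error only and with every event marked present in both lines. That setting covers neither spread between replicates nor listing through a single line, so it does not check the calls under those conditions. Intervals of shares are 95% Wilson intervals and those of folds Clopper-Pearson intervals. They cover counting error or the number of sites only, since PCR reads are not independent molecules and neighbouring sites share regions. Events were matched to the nearest event of another table by distance, 100 bp being the limit.

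The sites, comparison sets and tests were chosen with earlier results of these data known. Positions are named by a written rule: the 10 lost sites with the most FRA2, the 5 strongest with 0 Q111 reads, the ends and strongest site of the 5 largest groups, the 10 with the most SOX2, the 5 with the most JUND reads over both lines, those with JUND not called lower, the 5 strongest without JUND or SOX2 within 1 kb, the 5 most isolated, and the 5 on each side of each limit. Members of groups named beyond this rule, and the close neighbours, were chosen after their values were seen. Alternatives changed the rule, scaling, merging, distances and limits.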

Additional observations from a re-analysis of the deposited data

How the results depend on the processing

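No paired analysis was possible because the replicates are pooled in each library, and for the same reason none could be left out. The number of lost sites was 2486 with a rule fold of 4, 225 with 16, 1367 with a minimum of 20 reads, 351 with 80, 1533 with control reads subtracted and 1251 with scaling by control reads, an alternative chosen after seeing the data. The share of nearest JUND events called lower moved to 97.3% (fold 4), 100% (80 reads) and 96.7% (subtraction). It was 100% with JUND scaled by control reads, 89.5% with a JUND fold limit of 4 and 92.5% with an assumed dispersion of 0.05.

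The share of sites with JUND nearby moved to 84.4% (fold 16), 60.4% (20 reads) and 95.2% (80 reads), and to 72.6%, 86.8% and 88.5% with limits of 50 bp, 250 bp and 1 kb. The share with SOX2 nearby moved to 56.5% (fold 4), 67.6% (fold 16), 51.7% (20 reads), 74.1% (80 reads) and 57.3% (subtraction), to 43.3%, 75.2% and 78.4% with limits of 50 bp, 250 bp and 1 kb, to 51.2% with SOX2 events of a −log10 q of at least 5 and to 42.1% with SOX2 events of at least 40 reads. The share of sites in groups moved to 46.1% (fold 4), 19.1% (fold 16), 38.3% (20 reads), 22.8% (80 reads), 38.4% (subtraction) and 37.0% (scaling by control reads), to 21.9%, 39.7% and 65.0% with chains of 50 kb, 200 kb and 1 Mb, and to 24.5% with neighbours within 1 kb counted as 1 site. In each of these the cause was not tested, apart from the number of sites that each rule leaves. Of the 781 sites, 699 also met the rule with control reads subtracted.

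FRA2 ratios of named positions left their counting interval in 21 comparisons, 20 of them with control reads subtracted. The other was chromosome 6 position 71673698, where merging took the scaled log2 ratio from -6.53 to -0.01, so that the FRA2 difference there was gone, with 53.2 reads in Q7 and 54.5 in Q111 before scaling. No scaled ratio of a named position changed sign under the alternatives run. Of the JUND events named, 5 comparisons gained a call under an alternative and 2 lost it, both at chromosome 2 position 37605016. Pooled libraries, a median of 5.1 FRA2 and 6 JUND reads in Q111, and positions without sequence limit what these data show.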
